A study of Homo sapiens with 16 samples.

Results

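The 47 genes described here are interferon-stimulated genes and chemokines, of 62754 genes in the count table. They were taken by symbol from a list of genes that interferon is known to induce. The list was chosen with earlier results of these data known. All 47 were found, and all 47 were among the 18549 genes that passed the filter on low counts. RNA of 16 samples of LNCaP was sequenced in paired ends. LNCaP is a human prostate cancer line that grew out of a lymph node metastasis and keeps the androgen receptor and luminal genes. The 4 groups, each with 4 libraries numbered 1 to 4, were WT cells with vehicle, WT cells with GCN2iB, p53 KO cells with vehicle and p53 KO cells with GCN2iB. The p53 KO cells were derived from LNCaP by CRISPR, and whether they are 1 clone or a pool is not given in the sources used here. GCN2iB is an inhibitor of GCN2, the kinase encoded by EIF2AK4 that senses amino acid shortage through uncharged tRNA and phosphorylates the translation factor eIF2. The dose was 5 µM for 48 h, the vehicle was DMSO, and 350000 cells were plated per well in RPMI medium without phenol red and with fetal bovine serum. No interferon was named in the treatments of any group.

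Interferons are secreted proteins that bind receptors and, through the kinases JAK1, JAK2 and TYK2, activate STAT proteins. A complex that holds STAT2 and IRF9 binds the interferon-stimulated response element and turns on the genes listed here, among them proteins that bind or degrade viral RNA, GTPases, the ubiquitin-like protein ISG15 and chemokines that attract T cells. Cells start interferon production when the sensors RIGI and IFIH1 meet double-stranded RNA, or when other sensors meet DNA in the cytosol, and IRF1, IRF3 and IRF7 can drive part of the same genes directly. p53 is a transcription factor that stops the cell cycle through CDKN1A and other targets. LNCaP cells are known for a poor response to added interferon and for low JAK1.

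The stretches printed here carry the response element in members that differed between the genotypes. Promoter sequences were taken from RefSeq on GRCh38.p14, which had an entry for 38 of the 47 members, and the 250 bases before each start were searched on both strands. The capitals mark the core of the interferon-stimulated response element, GAAANNGAAA, or the same core read on the other strand. Each line gives a stretch around the core on the strand of the gene, for the 6 members with the smallest adjusted p whose promoter holds it.
IFI44, chr1:78649756-78649788, plus strand: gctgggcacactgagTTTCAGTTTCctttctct
RSAD2, chr2:6877617-6877656, plus strand: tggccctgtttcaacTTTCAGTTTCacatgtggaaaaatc
CXCL10, chr4:76023694-76023733, minus strand: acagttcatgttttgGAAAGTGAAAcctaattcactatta
IFIT3, chr10:89327826-89327899, plus strand: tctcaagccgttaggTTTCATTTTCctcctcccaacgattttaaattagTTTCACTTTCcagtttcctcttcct
IFIT1, chr10:89392492-89392544, plus strand: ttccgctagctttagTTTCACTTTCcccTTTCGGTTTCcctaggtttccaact
HERC5, chr4:88456979-88457069, plus strand: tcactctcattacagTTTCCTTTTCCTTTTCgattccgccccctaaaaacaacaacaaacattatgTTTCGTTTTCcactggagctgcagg
IFI44, RSAD2 and CXCL10 show 1 core each in these stretches, IFIT3 and IFIT1 show 2, and HERC5 shows 3, of which 2 overlap. The core was found in 23 of the 38 members (60.5%) and in 3.71% of the 27305 genes with a promoter entry. The gamma-activated site TTCNNNGAA, which STAT dimers bind, was found in 10 of the 38 (26.3%, against 8.09% of all genes). The kappaB site was found in 9 (23.7% against 11.8%) and the decamer bound by p53 in 3 (7.89% against 6.80%), namely ISG15, RIGI and IFIT3. A match is a string of letters and was not tested for binding, and the 38 promoters were not chosen independently of interferon response.

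Total counts per library ranged from 17418072 to 39915685. Levels are given as CPM, counts scaled to a common library total after TMM, and a value after ± is the SD over 4 libraries unless it is named as an SE. CDKN1A, a direct p53 target, was at 275 ± 21.1 CPM in WT vehicle, against 37.5 ± 3.73 CPM in p53 KO vehicle (7.33-fold lower, adjusted p = 1.23e-14 by the edgeR quasi-likelihood test), and no WT library overlapped a p53 KO library. The library WT GCN2iB 4 stood toward the p53 KO libraries. CDKN1A was at 374.9 CPM there, while WT GCN2iB 1 to 3 held 482.9 to 501 CPM. Member counts with GCN2iB in WT, and the values of some members, are therefore given with and without it. The genotype differences of ISG15, ISG20, IRF1 and IRF7, for which this library also stood toward p53 KO, are not given without it. EIF2AK4 was at 138 ± 10.2 CPM in WT vehicle, against 112 ± 5.21 CPM in WT GCN2iB. All 10 luminal prostate markers were tested, and their sum lay apart in each group, at 7219 to 7423 CPM in WT vehicle, 6694 to 6810 CPM in p53 KO vehicle, 6286 to 6493 CPM in WT GCN2iB and 5885 to 6274 CPM in p53 KO GCN2iB. Of 15 immune and blood cell markers only LYZ and NKG7 passed the filter, CD3D and MS4A1 were at 0 in every library, and PTPRC had 0 to 2 counts. A count of 0 allows up to 3 counts, or 0.0752 to 0.172 CPM depending on the library, as counting error only. The 15 together came to 0.249 to 0.719 CPM in WT vehicle, and 0.59 to 0.931 CPM in WT GCN2iB, and to 1.28 to 2.17 CPM in p53 KO vehicle and 1.30 to 2.25 CPM in p53 KO GCN2iB. Of 8 fibroblast and endothelium markers 5 were tested, and the sum of the 8, mostly COL1A1 and VWF, was lower in p53 KO, at 39.6 to 44.97 CPM in WT vehicle, against 27.9 to 32.9 CPM in p53 KO vehicle, and at 37.9 to 45.8 and 27.9 to 31.3 CPM in the GCN2iB groups. CDH5 and PECAM1 were at or near 0. These sums moved with genotype, the immune sum in the direction of the members and the other sums against it, and their part in the results was not tested. In bulk RNA, a higher level in every cell and more cells that express a gene cannot be told apart.

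Loss of p53 went with higher levels of most of the 47 genes. Because the 47 were chosen with earlier results known, their contrast with all genes is not independent of these data. A gene is called when its Benjamini-Hochberg adjusted p over all 18549 tested genes was under 0.05. Under vehicle, 27 of the 47 members were called higher in p53 KO than in WT, where 9.63% of all tested genes were, and 3 were called lower, where 12.1% were. Of these, 16 were at least 2-fold higher, against 2.2% of all tested genes. The median member difference was 0.73 on the log2 scale and the median over all tested genes was 0.01. Under GCN2iB, 32 members were called higher (12.7% of all tested genes) and 2 lower (11.2%), 17 were at least 2-fold higher (2.07%), and the median was 0.84 against 0.03 over all genes. Without WT GCN2iB 4 these were 30 higher (9.94% of all genes then tested) and 2 lower (11.3%), with a median of 0.87. At least 2-fold higher were then 19, for which the share over all genes was not counted. Overlap between the genotypes is stated within each treatment. Called higher under both treatments were 25 members, and both comparisons use separate libraries of the same 2 genotypes. The share of all tested genes called higher under both treatments is not given here. Nothing in the labels says that the 4 libraries of a group came from separate cultures, so the p-values measure the spread between these samples, which may be technical.

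**Figure D1:**
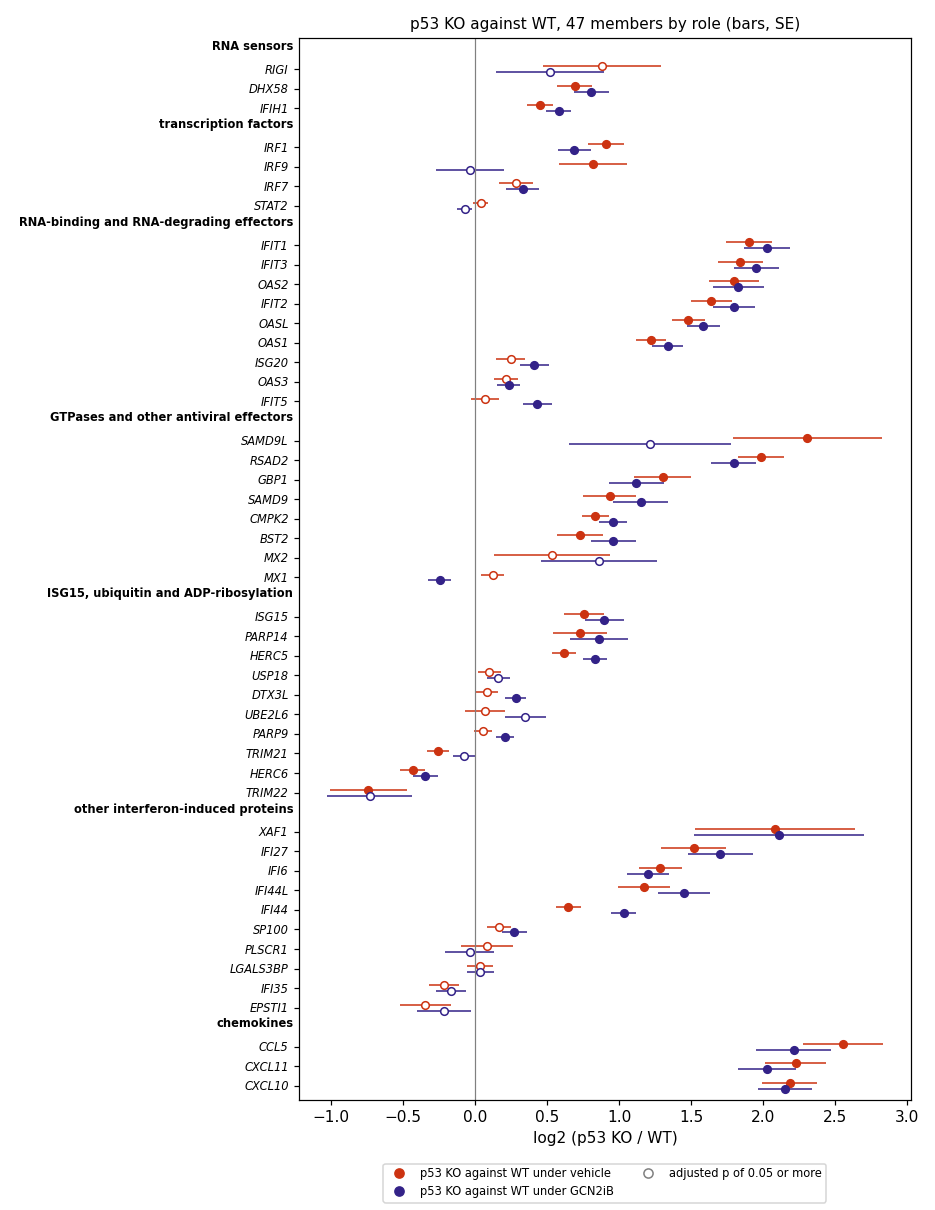
Difference in level between p53 KO and WT for the 47 members, grouped by role. The horizontal axis is the log2 ratio of p53 KO to WT with its SE, red under vehicle and blue under GCN2iB, and open circles mark an adjusted p of 0.05 or more. The chemokines CCL5, CXCL11 and CXCL10 lie near or above 2 under both treatments, and HERC6, TRIM21 and TRIM22 lie left of 0.

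All 3 chemokines were called higher in p53 KO under both treatments, each by at least 4-fold. Over all tested genes 9.63% were called higher under vehicle and 12.7% under GCN2iB. CXCL10, a ligand of the chemokine receptor CXCR3 on T cells, was at 2.83, 2.15, 2.34 and 2.85 CPM in WT vehicle libraries 1 to 4 and at 11.4, 10.5, 11.96 and 12.1 CPM in p53 KO vehicle. With GCN2iB it was at 2.17, 2.08, 1.67 and 4.45 CPM in WT and 12.1, 10.6, 11.7 and 12.6 CPM in p53 KO. No WT library reached any p53 KO library, and the WT library nearest to p53 KO was WT GCN2iB 4. The p53 KO level was 4.55-fold higher under vehicle (log2 2.18 ± 0.19 SE, adjusted p = 3.03e-08) and 4.45-fold higher under GCN2iB (adjusted p = 3.95e-08), or 5.85-fold without WT GCN2iB 4. CXCL11, which binds the same receptor, was at 1.32, 0.619, 0.841 and 1.05 CPM in WT vehicle, against 5.33, 4.28, 4.24 and 3.52 CPM in p53 KO vehicle. Under GCN2iB the values for CXCL11 were 0.745, 0.941, 1.06 and 1.53 CPM in WT and 3.55, 4.88, 4.72 and 4.66 CPM in p53 KO. It was 4.68-fold and 4.07-fold higher in p53 KO, with no overlap under either treatment. CCL5, a chemokine for T cells and monocytes, was at 1.77, 1.53, 1.93 and 2.90 CPM in WT vehicle, against 11.6, 12.1, 12.7 and 12.2 CPM in p53 KO vehicle. With GCN2iB the CCL5 values were 2.42, 1.48, 2.09 and 5.39 CPM in WT and 12.3, 13.8, 13.1 and 14.97 CPM in p53 KO. The vehicle difference of CCL5, 5.88-fold (log2 2.56 ± 0.28 SE, adjusted p = 4.04e-06), was the largest of the 47 members, and under GCN2iB it was 4.64-fold with WT GCN2iB 4 and 6.63-fold without.

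The IFIT proteins bind viral RNA and block its translation, and 3 of the 4 members rose together with p53 loss. IFIT1 was at 19.99, 17.9, 18.9 and 18.7 CPM in WT vehicle, against 71.98, 71.7, 68.4 and 70.1 CPM in p53 KO vehicle. With the inhibitor it was at 17.5, 15.9, 13.8 and 30.2 CPM in WT and 79.9, 76.9, 80.3 and 80.1 CPM in p53 KO. The libraries of each genotype lay close together apart from WT GCN2iB 4, and the difference was 3.74-fold under vehicle (log2 1.90 ± 0.16 SE, adjusted p = 1.65e-07). In the GCN2iB groups it was 4.08-fold over all libraries and 4.96-fold without WT GCN2iB 4. IFIT2 stood at 26.3, 24.4, 24.4 and 25.2 CPM in WT vehicle, against 86.04, 77.04, 75.99 and 73.5 CPM in p53 KO vehicle. Its GCN2iB values were 22.5, 19.6, 20.3 and 37.2 CPM in WT and 85.4, 92.3, 90.02 and 79.5 CPM in p53 KO. The genotypes did not overlap, and IFIT2 was 3.12-fold and 3.47-fold higher in p53 KO. IFIT3, which stabilises IFIT1 on RNA, was at 12.8, 11.7, 11.6 and 12.9 CPM in WT vehicle, against 44.7, 45.9, 44.02 and 40.9 CPM in p53 KO vehicle. Its GCN2iB libraries held 11.1, 9.88, 11.2 and 20.4 CPM in WT and 51.6, 53.3, 49.6 and 50.7 CPM in p53 KO. This made it 3.59-fold and 3.87-fold higher, again with no overlap. IFIT5, the neighbour of IFIT1 on the chromosome, was at 5.71 ± 0.368 and 5.97 ± 0.368 CPM under vehicle, was not called there (log2 0.07, adjusted p = 0.675), and was 1.35-fold higher in p53 KO under GCN2iB (adjusted p = 0.00256).

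The OAS enzymes make the oligoadenylate messenger that activates RNase L, and OASL is a related protein without that activity that supports RIGI. OASL had the smallest adjusted p of the 47 members under both treatments. It was at 35.4, 35.9, 35.1 and 37.95 CPM in WT vehicle, against 90.7, 105, 105 and 103 CPM in p53 KO vehicle, and at 43.1, 39.4, 39.4 and 64.00 CPM in WT GCN2iB and 137, 144, 129.6 and 148 CPM in p53 KO GCN2iB. Each of the 4 groups lay apart from the other groups, in the order WT vehicle, WT GCN2iB, p53 KO vehicle, p53 KO GCN2iB. Its difference between genotypes was 2.79-fold under vehicle (log2 1.48 ± 0.11 SE, adjusted p = 4.42e-09) and 3.00-fold under GCN2iB (adjusted p = 1.66e-09). OAS1 was at 4.10, 3.57, 4.30 and 3.90 CPM in WT vehicle, against 8.79, 9.41, 9.36 and 9.42 CPM in p53 KO vehicle, 2.34-fold higher. Under GCN2iB it was at 3.57, 2.96, 3.05 and 4.11 CPM in WT and 8.57, 8.91, 8.24 and 9.00 CPM in p53 KO, 2.53-fold higher. OAS2 was lower in level but differed more, with 1.97, 1.03, 1.46 and 1.52 CPM in WT vehicle, against 5.47, 5.43, 4.65 and 4.83 CPM in p53 KO vehicle (3.48-fold). The GCN2iB values of OAS2 were 1.09, 1.28, 1.48 and 1.56 CPM in WT and 5.08, 4.94, 5.99 and 3.52 CPM in p53 KO (3.55-fold). For OAS1 and OAS2 no p53 KO library overlapped a WT library. OAS3, which lies between them on chromosome 12, was at 53.8 ± 3.31 CPM in WT vehicle, against 62.3 ± 5.09 CPM in p53 KO vehicle and was not called (log2 0.21, adjusted p = 0.0677). With the inhibitor it was 1.18-fold higher (adjusted p = 0.0403). ISG20, an exonuclease of single-stranded RNA, was 1.33-fold higher under GCN2iB (adjusted p = 0.005) and under vehicle had a log2 difference of 0.25 (adjusted p = 0.09). Of the 9 RNA-binding and RNA-degrading members, 6 were called higher under vehicle (9.63% of all tested genes) and 9 under GCN2iB (12.7%).

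Among the GTPases and other antiviral effectors, 6 of 8 were called higher under vehicle, where 9.63% of all tested genes were. RSAD2, or viperin, makes a chain-terminating nucleotide from CTP. It was at 6.83, 5.10, 6.01 and 6.25 CPM in WT vehicle, against 24.9, 26.2, 22.7 and 21.5 CPM in p53 KO vehicle. Its GCN2iB values were 5.80, 6.32, 6.68 and 11.8 CPM in WT and 26.7, 28.8, 26.8 and 25.1 CPM in p53 KO, where WT GCN2iB 4 was the highest WT library but lay below every p53 KO library. The difference was 3.96-fold under vehicle (log2 1.99 ± 0.16 SE, adjusted p = 2.4e-08) and 3.48-fold under GCN2iB, or 4.21-fold without that library. CMPK2, a nucleotide kinase beside RSAD2 in the genome, was at 6.23, 4.597, 4.77 and 5.53 CPM in WT vehicle, against 9.61, 9.44, 9.48 and 8.85 CPM in p53 KO vehicle. In the GCN2iB groups it was at 4.90, 4.67, 5.07 and 5.62 CPM in WT and 9.63, 10.3, 9.73 and 9.81 CPM in p53 KO. CMPK2 was thus 1.78-fold and 1.94-fold higher with no overlap, and its annotated exons share 14 bases with those of RSAD2 on the opposite strand.
GBP1, a GTPase that attacks pathogen membranes, was at 0.759, 1.06, 1.12 and 1.16 CPM in WT vehicle, against 3.42, 2.59, 2.58 and 1.72 CPM in p53 KO vehicle, 2.47-fold higher. Under GCN2iB it was at 1.58, 1.18, 1.03 and 1.35 CPM in WT and 2.79, 2.60, 3.23 and 2.71 CPM in p53 KO, 2.17-fold higher, and here WT GCN2iB 1 and not library 4 was the highest WT library. BST2, or tetherin, which holds budding virus at the cell surface, was at 1.72, 1.30, 1.43 and 1.63 CPM in WT vehicle, against 2.10, 2.44, 2.71 and 2.76 CPM in p53 KO vehicle. With GCN2iB the BST2 values were 1.61, 1.34, 1.22 and 1.74 CPM in WT and 2.65, 3.04, 2.53 and 3.29 CPM in p53 KO. These gave 1.66-fold and 1.95-fold higher levels, without overlap. SAMD9, which limits translation in infected cells, was at 4.91, 4.07, 4.67 and 2.71 CPM in WT vehicle, against 8.82, 8.72, 7.49 and 5.79 CPM in p53 KO vehicle, and at 3.20, 2.25, 2.76 and 3.62 and 7.45, 6.91, 7.60 and 4.66 CPM in the GCN2iB groups. Library 4 was the lowest of its group for SAMD9 in WT vehicle, p53 KO vehicle and p53 KO GCN2iB, and the genotypes still did not overlap within a treatment (1.91-fold and 2.22-fold). Its neighbour SAMD9L, at 0.114 ± 0.0995 CPM in WT vehicle, against 0.505 ± 0.261 CPM in p53 KO vehicle, was called under vehicle only (adjusted p = 0.0022 and 0.124), and the genotypes overlapped. MX1, a GTPase that traps viral nucleocapsids, went the other way: it was not called under vehicle (log2 0.12, adjusted p = 0.302) and was 1.19-fold lower in p53 KO under GCN2iB, at 9.60, 10.05, 10.3 and 9.17 CPM against 11.4, 12.1, 12.3 and 10.6 CPM in WT (adjusted p = 0.0306). MX2 had 3 to 24 counts per library and was not called in any comparison.

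**Figure D2:**
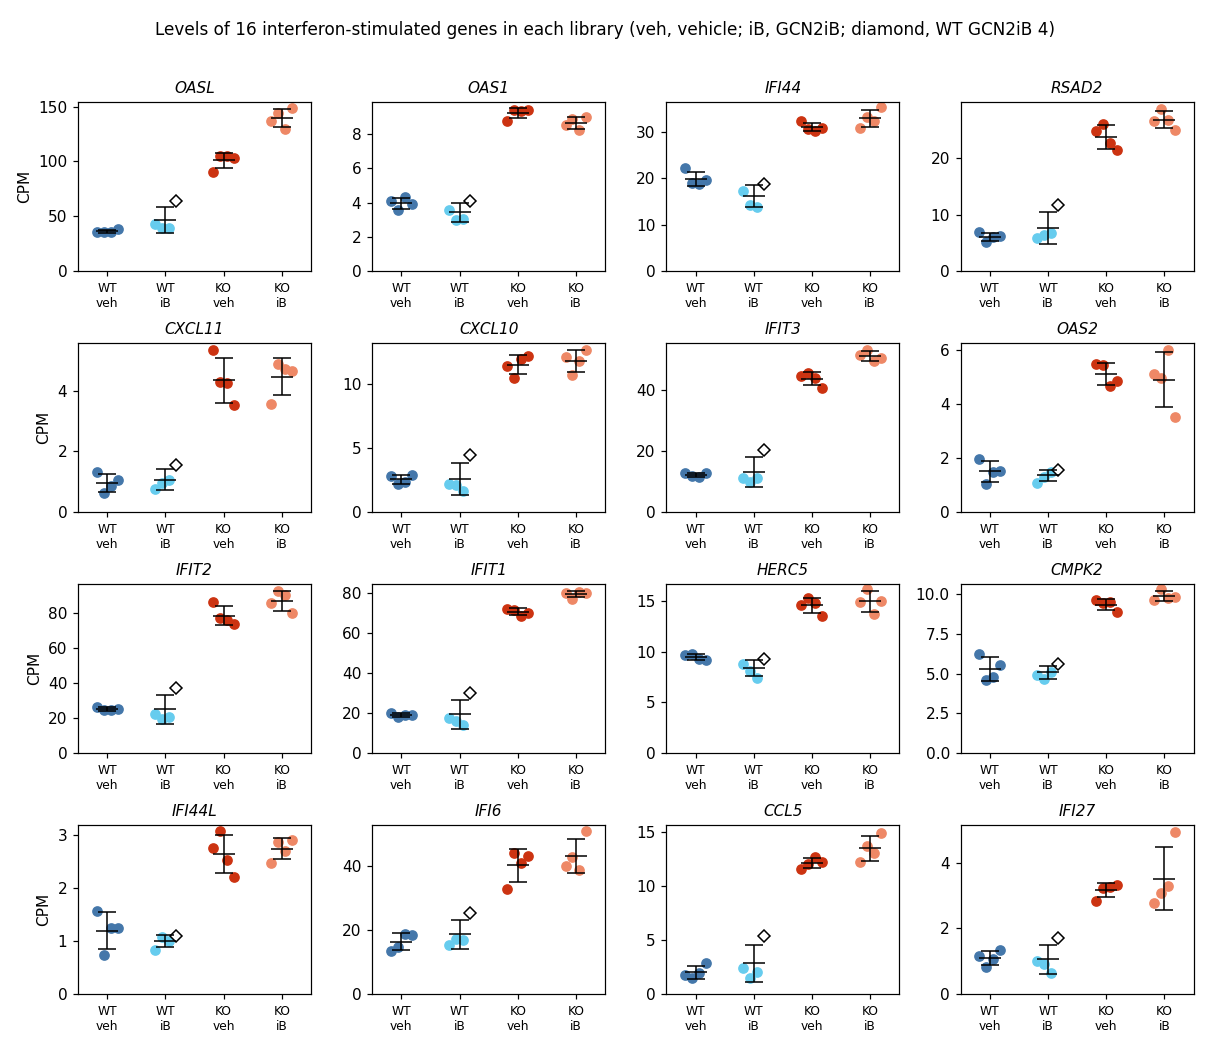
Levels of the 16 members with the smallest adjusted p, in CPM on a linear axis from 0, in WT vehicle (WT veh), WT GCN2iB (WT iB), p53 KO vehicle (KO veh) and p53 KO GCN2iB (KO iB). Circles are single libraries, the open diamond is WT GCN2iB 4, and bars give the mean and SD of 4 libraries. In all 16 panels every p53 KO library lies above every WT library of the same treatment, and the diamond is the highest WT GCN2iB library.

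Among the genes of the ISG15 pathway, ubiquitin and ADP-ribosylation, members moved in both directions. ISG15, a ubiquitin-like protein that is joined to other proteins, was at 63.6, 74.5, 75.3 and 90.2 CPM in WT vehicle, against 107, 141, 135 and 131 CPM in p53 KO vehicle. With the inhibitor it was at 82.6, 80.6, 87.4 and 116 CPM in WT and 154, 164, 149.97 and 215 CPM in p53 KO. ISG15 was 1.69-fold higher under vehicle (adjusted p = 0.000546) and 1.86-fold higher under GCN2iB (adjusted p = 0.000105), with no overlap, and per exon length it was the most abundant member (80.7 ± 11.6 CPM per kb in WT vehicle and 136 ± 15.7 in p53 KO vehicle). HERC5, the ligase that attaches ISG15, was at 9.67, 9.84, 9.31 and 9.23 CPM in WT vehicle, against 14.7, 15.4, 14.8 and 13.6 CPM in p53 KO vehicle. The GCN2iB values of HERC5 were 8.85, 8.07, 7.42 and 9.31 CPM in WT and 14.96, 16.3, 13.7 and 15.1 CPM in p53 KO. It was 1.54-fold and 1.78-fold higher in p53 KO, and the genotypes lay apart. Its neighbour HERC6 was lower in p53 KO, at 21.6, 21.8, 19.6 and 19.96 CPM in WT vehicle, against 15.9, 16.7, 14.2 and 14.5 CPM in p53 KO vehicle. The log2 difference of HERC6 was -0.43 ± 0.09 SE under vehicle (adjusted p = 0.000774) and -0.35 ± 0.09 SE under GCN2iB (adjusted p = 0.00619), and the genotypes did not overlap. TRIM21, an antibody receptor and ubiquitin ligase, was 1.20-fold lower under vehicle (adjusted p = 0.0176), and TRIM22 was 1.67-fold lower (adjusted p = 0.0495). Neither was called under GCN2iB (adjusted p = 0.519 and 0.0761). The vehicle call of TRIM21 was lost without WT vehicle 4 or p53 KO vehicle 1 (adjusted p of 0.0562 to 0.0752). That of TRIM22 ended without any of 6 libraries, WT vehicle 1 or 2 or any 1 of p53 KO vehicle (0.0642 to 0.226). With all libraries, the TRIM22 call was also lost with DESeq2 (0.0529), limma voom (0.0782), unscaled totals (0.069) and no count filter (0.0915), among others. The TRIM21 call was also lost with unscaled totals (0.0698) and no count filter (0.0536). PARP14 was 1.66-fold and 1.82-fold higher, while its neighbours PARP9 and DTX3L, which form 1 complex, were not called under vehicle and were 1.16-fold and 1.22-fold higher under GCN2iB. PARP9 and DTX3L share 217 exon bases on opposite strands. HERC6, TRIM21, TRIM22 and MX1 are named because so few members were lower, after their values were seen.

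The 10 other interferon-induced proteins held 5 members called higher under vehicle (9.63% of all tested genes) and 6 under GCN2iB (12.7%). IFI44, a cytoplasmic protein, was at 22.1, 18.9, 18.7 and 19.7 CPM in WT vehicle, against 32.3, 30.7, 30.2 and 30.8 CPM in p53 KO vehicle. In the GCN2iB groups it was at 17.2, 14.3, 13.9 and 18.8 CPM in WT and 30.8, 33.1, 32.4 and 35.3 CPM in p53 KO. The difference was 1.57-fold (log2 0.65 ± 0.08 SE) under vehicle and 2.04-fold (log2 1.03 ± 0.09 SE) under GCN2iB, with no overlap. IFI44L, its paralogue next to it, was at 1.57, 0.737, 1.25 and 1.24 CPM in WT vehicle, against 2.77, 3.08, 2.53 and 2.21 CPM in p53 KO vehicle, 2.25-fold higher. With GCN2iB it was at 0.838, 1.08, 0.996 and 1.09 CPM in WT and 2.48, 2.88, 2.71 and 2.91 CPM in p53 KO, 2.74-fold higher. IFI6, a mitochondrial and reticulum protein, was at 13.5, 14.7, 18.9 and 18.5 CPM in WT vehicle, against 32.9, 44.2, 41.1 and 43.3 CPM in p53 KO vehicle. Its GCN2iB values were 15.4, 17.3, 16.9 and 25.4 CPM in WT and 40.03, 42.98, 38.9 and 50.98 CPM in p53 KO, and it was 2.44-fold and 2.30-fold higher without overlap. IFI27, related to IFI6, was at 1.16, 0.825, 1.06 and 1.35 CPM in WT vehicle, against 2.84, 3.23, 3.25 and 3.30 CPM in p53 KO vehicle, and at 0.993, 0.907, 0.642 and 1.69 and 2.76, 3.07, 3.28 and 4.92 CPM in the GCN2iB groups. It was 2.86-fold higher under vehicle and 3.26-fold higher under GCN2iB, or 4.07-fold without WT GCN2iB 4, and here too no library of one genotype overlapped the other. XAF1, a proapoptotic protein with the lowest mean of the members in both WT groups, was 0.0916 ± 0.0836 CPM in WT vehicle, against 0.399 ± 0.136 CPM in p53 KO vehicle and was called higher under both treatments (adjusted p = 0.00859 and 0.0111). Its log2 difference moved from 2.08 to 3.00 without WT vehicle 2, and under GCN2iB from 2.11 to 2.85 without WT GCN2iB 4. IFI35, LGALS3BP, EPSTI1 and PLSCR1 were not called between the genotypes.

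Of the 3 RNA sensors 2 were called higher in p53 KO under each treatment, and of the 4 transcription factors 2. The share over all tested genes was 9.63% under vehicle and 12.7% under GCN2iB. IFIH1, or MDA5, which senses long double-stranded RNA, was at 14.3, 13.2, 15.9 and 15.3 CPM in WT vehicle, against 21.5, 20.9, 20.5 and 17.4 CPM in p53 KO vehicle. Under GCN2iB it was at 17.9, 14.5, 15.4 and 17.6 CPM in WT and 25.7, 24.4, 26.3 and 21.9 CPM in p53 KO. IFIH1 was 1.37-fold and 1.495-fold higher in p53 KO and the genotypes did not overlap within a treatment, while WT GCN2iB 1 lay above p53 KO vehicle 4. DHX58, or LGP2, which assists it, was at 7.29, 6.45, 4.45 and 5.25 CPM in WT vehicle, against 7.96, 9.53, 10.2 and 9.80 CPM in p53 KO vehicle, and at 5.96, 5.34, 5.17 and 6.22 and 9.69, 10.4, 9.27 and 10.3 CPM in the GCN2iB groups. DHX58 was 1.62-fold and 1.75-fold higher without overlap. RIGI, at 4 to 29 counts per library, was not called (log2 0.88 ± 0.41 SE under vehicle). IRF1, a transcription factor that can drive antiviral genes directly, was at 2.38, 2.53, 2.12 and 2.21 CPM in WT vehicle, against 4.64, 4.10, 4.68 and 3.90 CPM in p53 KO vehicle. With GCN2iB it was at 3.17, 3.33, 3.08 and 3.98 CPM in WT and 4.91, 5.45, 5.64 and 5.97 CPM in p53 KO. It was 1.88-fold higher under vehicle (adjusted p = 6.43e-06) and 1.61-fold higher under GCN2iB (adjusted p = 0.000119), and 22.0% of its annotated exon bases are shared with C5orf56. STAT2 was at 61.2, 60.4, 58.00 and 60.01 CPM in WT vehicle, against 60.8, 61.8, 62.1 and 61.4 CPM in p53 KO vehicle, which overlap, and was not called between the genotypes. IRF7, the amplifier of interferon production, was 1.26-fold higher under GCN2iB (adjusted p = 0.0442) and not called under vehicle (adjusted p = 0.0918). IRF9, the partner of STAT2, was 1.76-fold higher under vehicle (adjusted p = 0.0136), a call lost without p53 KO vehicle 3 (adjusted p = 0.0705), and not under GCN2iB (log2 -0.03). AL136295.5 covers 48.4% of the exon bases of IRF9, and the strand setting of the counting is not given in the sources used here.

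The calls of the smallest differences between the genotypes under GCN2iB lay near the threshold and were lost in some alternatives. The call was lost for OAS3 without any 1 of the WT GCN2iB libraries or of p53 KO GCN2iB 1, 2 or 3 (adjusted p of 0.0698 to 0.186), and for IRF7 without WT GCN2iB 1, 2 or 3 or any 1 of the p53 KO GCN2iB libraries (0.0719 to 0.167). For PARP9 it was lost without WT GCN2iB 2, 3 or 4 or p53 KO GCN2iB 1, 2 or 3 (0.0576 to 0.141), and for SP100 without WT GCN2iB 1 or 2 or p53 KO GCN2iB 1, 2 or 3 (0.0529 to 0.143). MX1 lost its call without WT GCN2iB 2 or 3 or p53 KO GCN2iB 4 (0.0576 to 0.0747), and DTX3L without WT GCN2iB 2 (0.0573). With these libraries left out the differences kept their direction, at a log2 of 0.18 to 0.24 for OAS3 (0.23 over all libraries) and 0.26 to 0.34 for IRF7 (0.33). With all libraries OAS3 was not called with DESeq2 size factors, DESeq2 or limma voom (0.0583 to 0.0629), nor IRF7 with DESeq2 size factors or DESeq2 (0.0504 to 0.0609). The other 28 member calls in that comparison were kept in every alternative in which the gene had an adjusted p.

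With GCN2iB, 9 members were called in WT, where 25.2% of all tested genes were, and 8 in p53 KO, where 20.1% were. Whether the members differed from all genes in this was not tested. Over all libraries no member moved by 2-fold, and the share of all genes that did was not counted. In WT, 4 members were called higher with GCN2iB than with vehicle (OASL, IRF1, OAS3 and PLSCR1), where 11.6% of all tested genes were, and 5 were called lower (IFI44, STAT2, SP100, PARP9 and DTX3L), where 13.6% were. The median member difference was -0.03, the same as over all tested genes. Without WT GCN2iB 4 there were 2 higher (9.83% of all genes then tested) and 7 lower (9.49%), with a median of -0.18. With both GCN2iB replicate 4 libraries left out there were 2 higher and 10 lower, where 2058 and 2396 of 18668 tested genes were. With unscaled library totals there were 4 higher and 8 lower, where 1880 and 2959 of 18549 tested genes were. In p53 KO, 5 members were called higher (OASL, IRF1, IFIH1, ISG15 and OAS3), against 11.4% of all tested genes, and 3 lower (STAT2, SP100 and MX1), against 8.71%, with a median of 0.05. With unscaled library totals the p53 KO split was 1 higher and 5 lower, and the split over all genes moved the same way, to 7.55% higher and 14.4% lower. Leaving out p53 KO vehicle 4 left 2 of the 5 higher calls, and leaving out p53 KO GCN2iB 2 or 4 left 3. Genes named here beyond the rule for members were named because each count is small, after their values were seen.

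OASL, IRF1 and OAS3 were called higher with GCN2iB in both genotypes. OASL was 1.29-fold higher in WT (adjusted p = 0.0215) and 1.39-fold higher in p53 KO (adjusted p = 0.00401), and the WT call was lost without WT GCN2iB 4 (adjusted p = 0.0725). For IRF1 every GCN2iB library lay above every vehicle library of its genotype, and the rise was 1.47-fold in WT (log2 0.56 ± 0.13 SE, adjusted p = 0.00227) and 1.26-fold in p53 KO (adjusted p = 0.0354). Leaving out any 1 of p53 KO vehicle 2 or 4 or of p53 KO GCN2iB 2, 3 or 4 ended the IRF1 call in p53 KO, with an adjusted p of 0.0632 to 0.113. OAS3 was at 53.7, 54.99, 57.1 and 49.3 CPM in WT vehicle, against 64.1, 69.7, 63.8 and 64.5 CPM in WT GCN2iB, with no overlap, and at 59.2, 67.7, 65.5 and 56.8 and 82.4, 81.04, 82.9 and 62.1 CPM in p53 KO, where GCN2iB 4 lay among the vehicle libraries. Its rise was 1.22-fold in WT and 1.24-fold in p53 KO. PLSCR1, a phospholipid scramblase, rose 1.44-fold in WT (adjusted p = 0.0339), a call lost without any of 5 libraries, WT vehicle 1 or 3 or WT GCN2iB 1, 3 or 4, with an adjusted p of 0.0546 to 0.0841. In p53 KO, IFIH1 was 1.22-fold higher (adjusted p = 0.0217) and ISG15 1.33-fold higher (adjusted p = 0.0381). Both calls were lost when single p53 KO libraries were left out, p53 KO vehicle 4 or GCN2iB 1 or 3 for IFIH1 (adjusted p of 0.062 to 0.0785) and p53 KO vehicle 1, 3 or 4 or GCN2iB 2 or 4 for ISG15 (adjusted p of 0.0568 to 0.142).

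STAT2 and SP100 were called lower with GCN2iB in both genotypes. STAT2 was at 61.2, 60.4, 58.00 and 60.01 CPM in WT vehicle, against 52.6, 51.6, 51.7 and 52.2 CPM in WT GCN2iB, and at 60.8, 61.8, 62.1 and 61.4 CPM in p53 KO vehicle and 50.7, 50.05, 51.1 and 46.1 CPM in p53 KO GCN2iB. No vehicle library overlapped a GCN2iB library, and the fall was 0.20 on the log2 scale in WT (SE 0.05, adjusted p = 0.00774) and 0.31 in p53 KO (SE 0.05, adjusted p = 0.000222). SP100, a component of nuclear bodies that restrict DNA viruses, was at 16.9, 15.4, 15.2 and 15.7 CPM in WT vehicle, against 11.5, 9.88, 12.9 and 12.2 CPM in WT GCN2iB. In p53 KO it was at 18.2, 17.4, 17.8 and 17.5 CPM with vehicle and 14.8, 14.3, 15.1 and 12.3 CPM with GCN2iB. The treatments did not overlap in either genotype, and SP100 was 1.35-fold lower in WT (adjusted p = 0.00055) and 1.26-fold lower in p53 KO (adjusted p = 0.00615). Between the genotypes SP100 was 1.21-fold higher in p53 KO under GCN2iB (adjusted p = 0.0214), where the libraries overlap. IFI44 was 1.23-fold lower with GCN2iB in WT (adjusted p = 0.0151) and had a log2 difference of 0.09 in p53 KO (adjusted p = 0.506). The WT call of IFI44 was lost without WT vehicle 1 or without WT GCN2iB 2 or 3, with an adjusted p of 0.0629 to 0.0863. PARP9 and DTX3L were 1.24-fold and 1.22-fold lower in WT, and MX1 was 1.27-fold lower in p53 KO (adjusted p = 0.00357). The comparisons in the 2 genotypes share no libraries with each other, but each shares a group with both genotype comparisons.

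**Figure D3:**
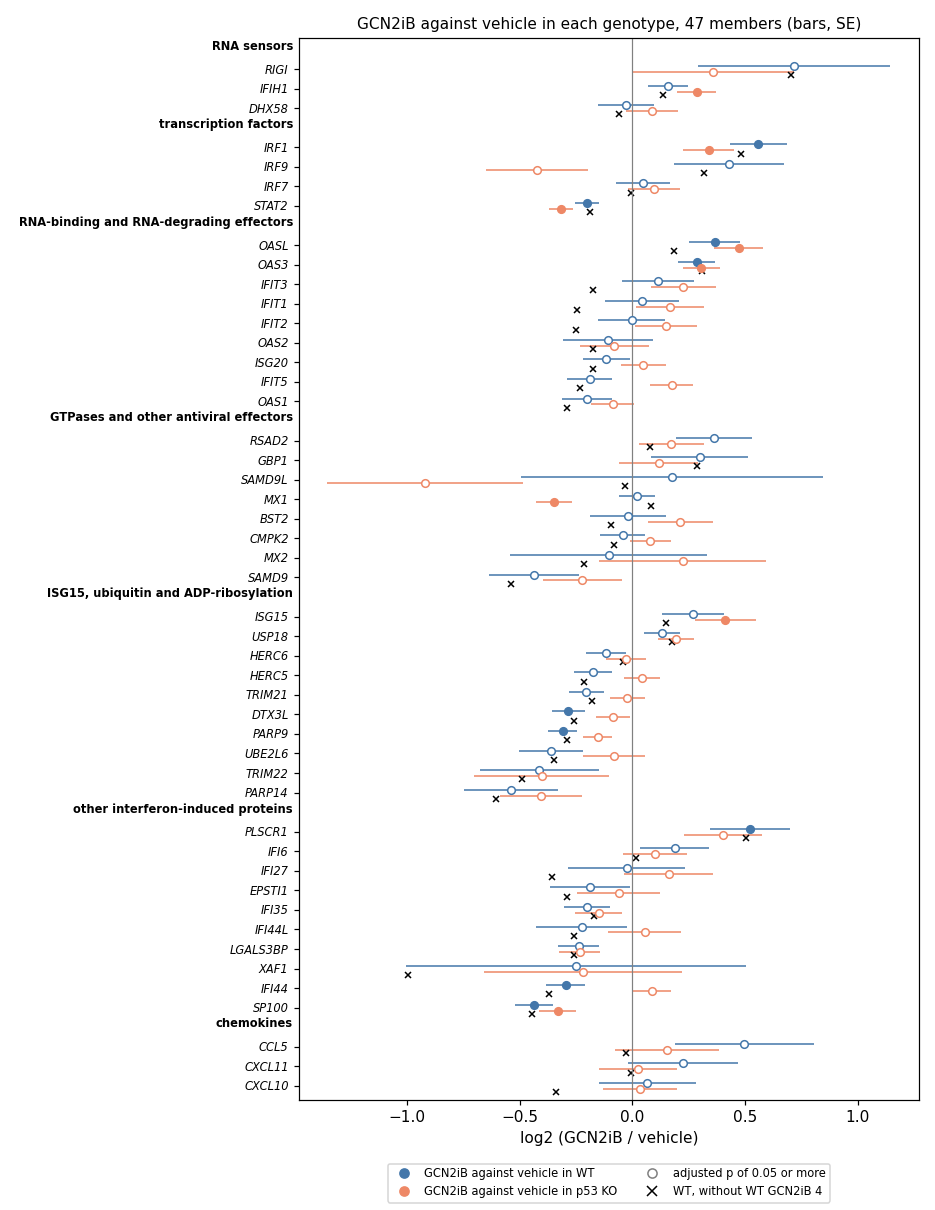
Difference in level between GCN2iB and vehicle for the 47 members, grouped by role. The horizontal axis is the log2 ratio of GCN2iB to vehicle with its SE, blue in WT and orange in p53 KO, open circles mark an adjusted p of 0.05 or more, and black crosses give the WT value without WT GCN2iB 4. Most crosses lie to the left of the blue circles, and the members lie between -1 and 1.

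Whether the GCN2iB response differed between the genotypes was tested as an interaction, which called 0.00539% of all tested genes. None of the 47 members was called by the edgeR quasi-likelihood test. At an unadjusted p under 0.05 there were 4 members by edgeR, 4 by DESeq2 and 4 by limma voom, and 10 by edgeR without WT GCN2iB 4. The member differences in response ranged from -1.10 (SAMD9L) to 0.38 (IFI44) on the log2 scale, and the smallest adjusted p was 0.334, for MX1 (log2 -0.37 ± 0.11 SE). IFI44 had an adjusted p of 0.344 for its difference in response (log2 0.38 ± 0.12 SE). So a call in one genotype and none in the other is not shown to be a difference between them.

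WT GCN2iB 4 was the highest WT GCN2iB library in 31 of the 47 members, while libraries 1, 2 and 3 were the highest in 9, 2 and 5. This is not shown to be particular to the members, because the same count over all tested genes was not made for WT GCN2iB 4. For the 16 members at least 2-fold higher in p53 KO under vehicle, the position of this library was expressed as a share of the distance from the mean of WT GCN2iB 1 to 3, set at 0%, to the mean of the p53 KO libraries with GCN2iB. It was the highest in 15 of the 16, all but GBP1. Its share had a median of 24.4% and ranged from 5.77% (GBP1) to 40.5% (XAF1). It stood at 29.4% for CCL5, 25.2% for CXCL10, 22.7% for IFIT1 and 33.4% for IFI6. Each of the other WT GCN2iB libraries, placed in the same way against the mean of the other 2 of libraries 1 to 3, had a median of 2.17%, 0.107% and 0.412%, and WT vehicle 4, placed against WT vehicle 1 to 3, had 3.27%. In CPM the library thus carried more of these transcripts than its group, and less CDKN1A. How it came to stand there was not tested. Leaving it out turned IFIT1 and IFIT2 into members called lower with GCN2iB in WT: IFIT1 went from a log2 difference of 0.04 (adjusted p = 0.878) to -0.25 (adjusted p = 0.0269), and IFIT2 from -0.00 to -0.25 (adjusted p = 0.0269). Of the 34 members called between the genotypes under GCN2iB, 31 had a larger difference without it and 3 (OAS3, PARP9 and DTX3L) a smaller one, and 2 lost the call. Without it the p53 KO level was 4.75-fold higher for CXCL11, 4.11-fold for IFIT2, 4.71-fold for IFIT3 and 3.38-fold for OASL. The values were 2.67-fold for OAS1, 3.70-fold for OAS2, 2.58-fold for IFI6, 2.79-fold for IFI44L and 2.18-fold for GBP1. For GCN2iB in WT, 7 of the 9 calls held without it, with log2 differences of 0.48 for IRF1 (adjusted p = 0.0112), -0.19 for STAT2 (adjusted p = 0.034) and -0.45 for SP100 (adjusted p = 0.0019).

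**Figure D4:**
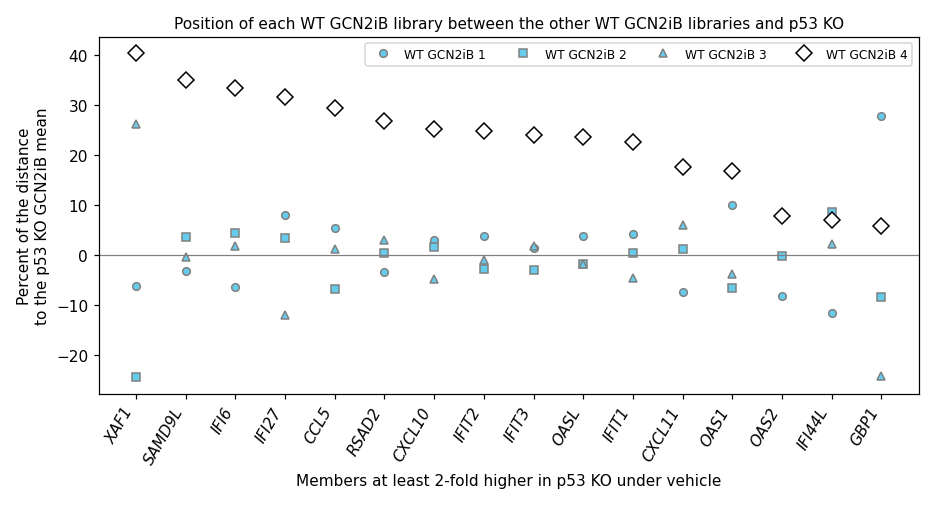
Position of each WT GCN2iB library for the 16 members at least 2-fold higher in p53 KO under vehicle. The vertical axis is the percent of the way to the mean of p53 KO GCN2iB, diamonds are WT GCN2iB 4 and the smaller symbols are libraries 1 to 3. The diamonds lie between 5.77% and 40.5%, and another library lies above the diamond for GBP1 (library 1), OAS2 (library 3) and IFI44L (library 2), each placed against the mean of the other 2 of libraries 1 to 3.

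Of the 47 members, 22 lie in 9 groups of neighbours at most 200 kb apart in GENCODE release 29. HERC6 and HERC5, within 127 kb on chromosome 4, had log2 differences of -0.43 and 0.62 under vehicle. Along 137 kb of chromosome 10 IFIT2, IFIT3 and IFIT1 had 1.64, 1.84 and 1.90, and IFIT5 at the end had 0.07. On chromosome 12, OAS1, OAS3 and OAS2 had 1.22, 0.21 and 1.80. RSAD2 had 1.99 and CMPK2 0.84 on chromosome 2, and PARP14 had 0.73 where PARP9 and DTX3L had 0.05 and 0.08 on chromosome 3. CXCL10 and CXCL11, 20.3 kb from end to end on chromosome 4, had 2.18 and 2.23. Neighbours of a member called higher were thus called higher, not called or called lower, and the differences between neighbours were not tested. Members with the response element core in the promoter were called higher under vehicle in 15 of 23 cases, those with an entry and no core in 7 of 15, and those with no entry in 5 of 9. Under GCN2iB the counts were 19 of 23, 7 of 15 and 6 of 9. Of all tested genes, 9.63% were called higher under vehicle and 12.7% under GCN2iB. The median log2 differences with and without the core were 0.73 and 0.82 under vehicle, and 0.90 and 0.35 under GCN2iB. A difference by promoter core was not tested.

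The interferons themselves were at low levels. Of 23 genes for interferons, receptors and signalling, 15 were tested, of which 3 were called higher and 2 lower in p53 KO under each treatment, where 9.63% and 12.1% of all tested genes were under vehicle and 12.7% and 11.2% under GCN2iB. IFNL1, a type III interferon, was at 0.101, 0, 0.0311 and 0.166 CPM in WT vehicle, against 0.239, 0.633, 0.307 and 0.300 CPM in p53 KO vehicle, and at 0.124, 0.101, 0.161 and 0.208 and 0.475, 0.539, 0.921 and 0.670 CPM in the GCN2iB groups. It was 4.73-fold (adjusted p = 0.00485) and 4.08-fold (adjusted p = 0.00201) higher in p53 KO, with no overlap between genotypes. IFNB1 did not pass the filter, with 0, 3, 1 and 0 counts in WT vehicle, 9, 0, 0 and 0 in WT GCN2iB, 9, 5, 9 and 3 in p53 KO vehicle and 4, 2, 3 and 7 in p53 KO GCN2iB. Fitted without a count filter, IFNB1 had a log2 difference of 2.26 ± 0.83 SE under vehicle (adjusted p = 0.0605 by edgeR) and 0.91 ± 0.76 SE under GCN2iB (adjusted p = 0.566). IFNA1, IFNE and IFNG were at 0 in every library. The receptor chain IFNAR1 was at 99.3 ± 9.05 CPM in WT vehicle, against 102 ± 9.70 CPM in p53 KO vehicle and was not called in any comparison. JAK1 was at 0.645 ± 0.0685 CPM per kb of exon in WT vehicle, against 14.8 ± 0.740 for TYK2 and 3.55 ± 0.264 for JAK2, and it was 1.29-fold higher in p53 KO under vehicle (adjusted p = 0.0377) but not under GCN2iB (adjusted p = 0.515). TYK2 and JAK2 were not called between the genotypes, and JAK2 was 1.25-fold lower with GCN2iB in WT (adjusted p = 0.0174). SOCS1, the feedback inhibitor of JAK kinases, was 2.19-fold higher under vehicle (adjusted p = 0.023) at 0.469 ± 0.130 CPM, and under GCN2iB had a log2 difference of -0.22 (adjusted p = 0.717).

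**Figure D5:**
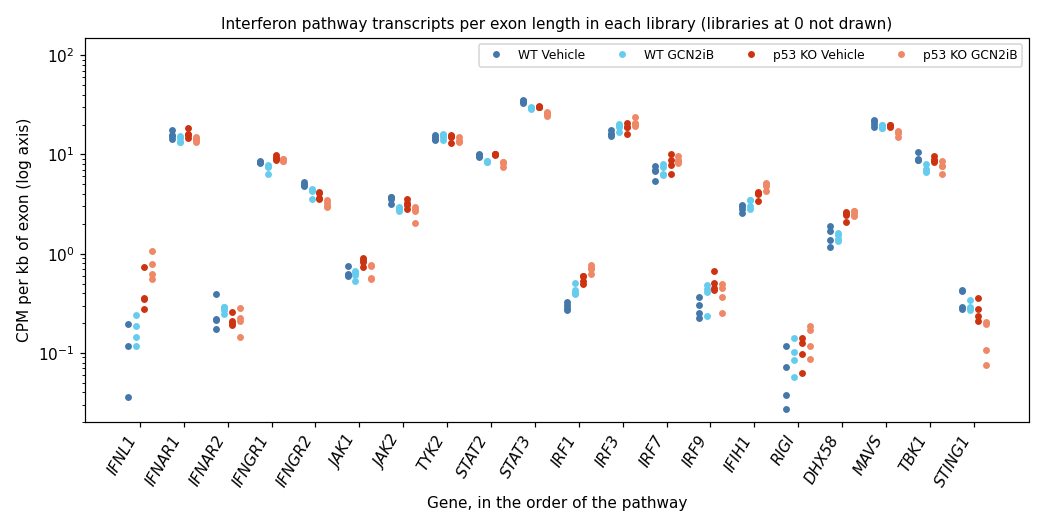
Levels of 20 genes of interferon production and signalling, in CPM per kb of exon on a log axis, in each library, coloured by group. IFNL1 is higher in the p53 KO groups than in WT, and JAK1 lies well below TYK2 in every library, with means of 0.645 and 14.8 in WT vehicle.

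A further list holds 18 genes of nucleic acid sensing upstream of interferon, without the members IFIH1, DHX58 and RIGI. Of these 13 were tested, and by edgeR 0 were called higher (9.63% of all tested genes) and 2 lower (12.1%) in p53 KO under vehicle, and 0 higher (12.7%) and 3 lower (11.2%) under GCN2iB. So few genes show nothing particular to the list. With both GCN2iB replicate 4 libraries left out, 1 was called higher under vehicle, where 10.9% of all genes then tested were. At an unadjusted p under 0.05 there were 1 higher under vehicle and 0 under GCN2iB, and DESeq2 and limma voom also called 0 higher. IRF3 was at 61.8 ± 3.29 CPM in WT vehicle, against 71.5 ± 7.31 CPM in p53 KO vehicle (adjusted p = 0.0676). STING1, the adaptor of DNA sensing, was at 1.14 ± 0.114 CPM in WT GCN2iB and 0.560 ± 0.248 CPM in p53 KO GCN2iB, 1.92-fold lower (adjusted p = 0.0114), and was not called under vehicle (log2 -0.39). The DNA sensors CGAS and IFI16 had at most 3 and 4 counts in a library, and AIM2 was at 0 in all. With GCN2iB, STING1 was 1.77-fold lower in p53 KO (adjusted p = 0.0295), and over the 13 tested genes 1 was called higher and 4 lower in each genotype, where 11.6% and 13.6% of all tested genes were in WT and 11.4% and 8.71% in p53 KO. Without WT GCN2iB 4 the WT count was 0 higher and 1 lower, where 9.83% and 9.49% of all genes then tested were.

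Of 20 genes for NF-kappaB and inflammatory cytokines, 9 were tested, with 4 called higher (9.63% of all tested genes under vehicle and 12.7% under GCN2iB) and 2 lower (12.1% and 11.2%) in p53 KO under each treatment. TNFAIP3, the A20 inhibitor of NF-kappaB and a target of it, was at 3.47 ± 0.153 CPM in WT vehicle, against 8.07 ± 0.301 CPM in p53 KO vehicle, 2.32-fold higher (adjusted p = 1.99e-09), and 1.85-fold higher under GCN2iB. RELB, an NF-kappaB subunit, was 1.82-fold and 1.66-fold higher, and the ubiquitin ligase BIRC3 1.39-fold and 1.66-fold higher. LIF, a cytokine of the IL-6 family, went the other way, at 5.05 ± 0.865 CPM in WT vehicle, against 0.544 ± 0.0765 CPM in p53 KO vehicle, 9.30-fold lower (adjusted p = 5.62e-10). The 11 untested genes, IL6, TNF and CXCL8 among them, had at most 12 counts in any library, and CXCL1 was at 0 in all. For GCN2iB in the signalling list the counts were 1 higher and 5 lower in WT, or 1 higher and 1 lower without WT GCN2iB 4, and 1 higher and 2 lower in p53 KO. Of all tested genes, 11.6% were called higher and 13.6% lower in WT, and 11.4% and 8.71% in p53 KO. Without WT GCN2iB 4 the WT shares were 9.83% and 9.49%. In the NF-kappaB list the calls were BIRC3 lower in WT (1.30-fold, with 1 further gene called higher without WT GCN2iB 4) and NFKB1 and RELA higher in p53 KO (1.15-fold and 1.16-fold).

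Of the 47 members, 7 were called in none of the 5 comparisons by edgeR over all libraries: MX2, IFI35, RIGI, USP18, UBE2L6, EPSTI1 and LGALS3BP. The share of all tested genes called in none is not given here. Of the 7 members, 4 were called in some alternative. LGALS3BP was lower with GCN2iB in WT and in p53 KO with the replicate block (adjusted p = 0.0115 and 0.0153) and with unscaled totals (0.0259 and 0.0143), among others. USP18 was called in p53 KO with the block (0.0448), UBE2L6 in WT with the block (0.0445) or unscaled totals (0.0444), and RIGI between the genotypes without WT vehicle 1 (0.045). Among these USP18, the protease that removes ISG15, was at 19.3 to 26.6 CPM over the 16 libraries with a smallest adjusted p of 0.0867, and it has near-identical copies, so its counts are uncertain. UBE2L6, the conjugating enzyme for ISG15, was at 2.38 to 4.61 CPM and LGALS3BP at 22.9 to 34.8 CPM, with smallest adjusted p of 0.0655 and 0.0591. IFI35 was at 6.53 to 10.7 CPM and EPSTI1 at 0.815 to 1.47 CPM. For these genes a difference was not detected over all libraries, which does not show that their levels were equal.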

How the data were processed

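RNA of LNCaP cells was sequenced in 16 libraries, 4 in each of 4 groups, which were taken from the labels. The deposited table gives the authors' raw counts of reads for each gene, without normalization. Per the submitters' processing notes, the tools were Trim Galore, HISAT2, featureCounts and, in no stated role, DESeq2, with GRCh38 as the build. For the annotation release and the strand setting, the sources used here give nothing, and every column matched a sample.

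Counts were fitted in R 4.3.3 with edgeR 4.0.16: filterByExpr, which kept 18549 genes, TMM scaling of totals, and a robust quasi-likelihood test with 1 term per group over all 16 libraries. The 5 two-sided comparisons share groups. Benjamini-Hochberg adjustment ran over all tested genes, with a threshold of 0.05. SE is the log2 difference divided by the root of its F. Exon lengths and overlaps came from GENCODE release 29. The script was tested on simulated data. Alternatives used DESeq2 1.42.0, limma 3.58.1 (voom), DESeq2 size factors, unscaled totals, other count filters, fewer libraries and a replicate block. Plots were made in Python 3.11.15 with matplotlib 3.10.9.

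The members and lists were chosen with earlier results of these data known. Values in every library are given for the 25 called members with the smallest adjusted p over the comparisons, and other members by means, ranges and counts. Pathway genes were named where a called difference was at least 1.5-fold, along with JAK1, JAK2, TYK2, IFNAR1 and IRF3. The transcript of the targeted gene and 1 further gene named by this rule are not reported here.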

Additional observations from a re-analysis of the deposited data

Results flagged for a closer look

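In 14 of 188 sets of 4 libraries, 1 library of a member stood apart from the others of its group, with a gap, as a share of the range of the group, over Dixon's 95% critical value, and chance gives about 1 in 20. WT GCN2iB 4 was the one apart in 5 sets, each time as the highest: OASL at 64.0 CPM (others 39.4 to 43.1), IFIT2 at 37.2 CPM (others 19.6 to 22.5), IFIT3 at 20.4 CPM (others 9.88 to 11.2), RSAD2 at 11.8 CPM (others 5.80 to 6.68) and SAMD9L at 0.156 CPM (others 0.0931 to 0.101). The same library had a lower CDKN1A level in CPM than its group, and how it came to stand there was not tested. p53 KO vehicle 1 was the lowest in 3 sets, OASL at 90.7 CPM, OAS1 at 8.79 CPM and IFI27 at 2.84 CPM. WT GCN2iB 2 stood apart for OAS3 at 69.7 CPM (others 63.8 to 64.5) and for PLSCR1 at 1.65 CPM (others 2.05 to 2.12). The remaining 4 were OAS3 in p53 KO GCN2iB 4 at 62.1 CPM, IFIT1 in p53 KO GCN2iB 2 at 76.9 CPM, CXCL11 in p53 KO GCN2iB 1 at 3.55 CPM and XAF1 in p53 KO vehicle 2 at 0.603 CPM, for which the other libraries lay at 0.328 to 0.335 CPM.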

How the results depend on the processing

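Of 81 member calls over the 5 comparisons, 64 were kept in every alternative in which the gene had an adjusted p. These were 27 of 30 between the genotypes under vehicle and 28 of 34 under GCN2iB. For GCN2iB in WT and in p53 KO they were 5 of 9 and 4 of 8. A gene that a count filter removed in an alternative was not counted as lost there. Leaving out 1 library gave 28 to 30, 28 to 33, 7 to 10 and 6 to 8 called members, and 0 for the interaction. Of all genes then tested, 16.6% to 22.2%, 17.5% to 25.9%, 18.2% to 23.8% and 14.9% to 19.6% were called. For the interaction 0.00529% to 0.18% were. With the replicate block, 14 members were called for GCN2iB in WT, while the share over all genes rose from 25.2% to 33.1%. In p53 KO 6 members were called higher and 5 lower with the block, against 5 and 3 without it. Of all tested genes, 15.4% were called higher and 13.1% lower in p53 KO with the block, against 11.4% and 8.71% without it. The block moved no other member count by over 1.5 times. Libraries of 1 number share only that number by the labels: 5 of 24 same-numbered pairs correlated above 0.1, and 13 of 16 libraries correlated best with their own number. IFIT1 with GCN2iB in WT changed sign, from a log2 difference of 0.04 to -0.25 without WT GCN2iB replicate 4 (-0.25 to 0.19 over the libraries left out) and to -0.26 with both GCN2iB replicate 4 libraries left out, where the alternative removes the highest WT library. Levels near 1 CPM or lower, such as SAMD9L, XAF1, RIGI and MX2, limit what can be called at this depth.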
